A study of Mus musculus with 2 samples.

Results

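The regions described here are the promoter peaks of mouse genes that carry no gene ontology (GO) term in the authors' annotation of an ATAC-seq peak table from heart. They were taken as every peak of the class within 1 kb of a transcription start whose closest gene has a single dot in place of its GO terms. There were 2789 such peaks, called no-GO promoters below, at 2461 Ensembl genes, which is 14.4% of the 19366 promoter peaks and 4.80% of all 58076 peaks. ATAC-seq tags open DNA with the Tn5 transposase, and the number of reads over a peak was taken as its accessibility. The knockout library came from hearts with a cardiac deletion of Ythdc1 (genotype Ythdc1 CKO), and the control library from Ythdc1flox/flox hearts, which carry the floxed allele. Both came from mice 15 days of age on a normal diet. The sources used here do not give the driver of the deletion, the number of animals behind each library, or whether the control mice carried a Cre. With 1 library per genotype no difference has a replicate check, no p-value was computed, and no interval covers the spread between animals. Intervals of ratios cover counting error only, and those of shares treat peaks as independent draws.

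Genes without GO terms are mostly noncoding or predicted. They include long noncoding RNAs, which are spliced and often transcribed divergently or antisense beside a coding gene, microRNA precursors, small nuclear and nucleolar RNAs, pseudogenes, and predicted coding genes. Ythdc1 is a nuclear protein that binds N6-methyladenosine in RNA, and several of its known RNA partners are long noncoding RNAs that stay in the nucleus. Noncoding promoters are known to be weaker and poorer in CpG than those of widely expressed coding genes, and many lie in sequence that also acts as an enhancer.

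The 2 libraries held 6466537 (knockout) and 6755590 (control) counts over the peaks, and all levels are counts scaled to a sum of 1000000 per library (CPM). The log2 ratio is knockout over control with 0.5 counts added to each. A peak is called higher or lower at a ratio of 2-fold, a rule of size, which 6.09% of all peaks passed upward, 8.96% downward and 15.0% either way. Promoter peaks could be matched by position to 7 of 7 heart muscle markers, 4 of 4 endothelial and 4 of 4 fibroblast markers, and to 0 of 3 myeloid and 0 of 2 erythroid markers. The summed promoter signal of the heart muscle markers was 335 CPM in the knockout and 381 CPM in the control. Actc1 was the lowest at a log2 ratio of -0.80 and Tnnt2 the highest at 0.19, with 5 markers below 0 and 2 above. The endothelial markers summed to 114 CPM in the knockout and 93.7 CPM in the control, and the fibroblast markers to 101 and 76.4 CPM in the same order of libraries. In each of these sets 3 markers lay above 0 and 1 below, Kdr at -0.06 and Col1a1 at -0.14. In such bulk libraries fewer nuclei of a type cannot be told apart from less open chromatin per nucleus, and the part of these marker differences in the results below was not tested.

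Sequences are shown for 4 no-GO promoters with log2 ratios of 1.83, -1.47, 0.32 and -0.18, to set a higher, a lower and 2 less changed promoters of unlike base composition side by side. They are the RefSeq windows of GRCm38.p6, 250 bases before to 50 bases after the annotated start, on the strand of the gene, and capitals mark matches on either strand to the motifs listed later. 4833412C05Rik is a long noncoding RNA gene (chr7:67803447-67803746, minus strand) whose peak had the third highest ratio above the median signal. Gm34474 (chr8:35218390-35218689, plus strand) had the sixth lowest there. Mhrt (chr14:54968537-54968836, plus strand) is the myosin heavy chain associated RNA, transcribed antisense to Myh7, and its window holds a TEAD motif. Snhg5 (chr9:88522848-88523147, minus strand) hosts small nucleolar RNAs and is the CpG-rich case. Its window also holds a TEAD motif, with a TATA box, a CCAAT box and overlapping GC boxes.
4833412C05Rik: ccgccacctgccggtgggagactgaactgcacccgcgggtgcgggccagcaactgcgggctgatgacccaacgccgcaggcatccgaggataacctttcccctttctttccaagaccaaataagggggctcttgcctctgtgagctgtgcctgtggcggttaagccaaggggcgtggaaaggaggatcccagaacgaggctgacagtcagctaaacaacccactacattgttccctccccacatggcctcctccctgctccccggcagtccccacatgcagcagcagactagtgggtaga
Gm34474: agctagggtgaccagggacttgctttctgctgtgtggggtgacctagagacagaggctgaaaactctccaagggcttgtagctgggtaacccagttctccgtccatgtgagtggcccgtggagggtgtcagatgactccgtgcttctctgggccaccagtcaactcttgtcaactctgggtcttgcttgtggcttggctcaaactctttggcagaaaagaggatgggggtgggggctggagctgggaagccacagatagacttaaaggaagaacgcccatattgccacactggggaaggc
Mhrt: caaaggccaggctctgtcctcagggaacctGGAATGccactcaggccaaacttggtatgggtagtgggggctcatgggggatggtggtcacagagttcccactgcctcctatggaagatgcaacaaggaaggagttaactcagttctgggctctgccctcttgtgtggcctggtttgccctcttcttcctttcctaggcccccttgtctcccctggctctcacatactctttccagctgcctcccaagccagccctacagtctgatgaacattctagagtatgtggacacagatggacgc
Snhg5: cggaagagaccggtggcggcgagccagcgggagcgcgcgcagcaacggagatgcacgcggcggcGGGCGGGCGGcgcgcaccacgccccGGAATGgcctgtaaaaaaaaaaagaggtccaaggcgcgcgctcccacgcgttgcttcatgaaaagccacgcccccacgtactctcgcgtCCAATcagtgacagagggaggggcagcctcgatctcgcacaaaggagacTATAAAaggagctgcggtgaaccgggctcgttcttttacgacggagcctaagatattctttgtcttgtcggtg

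The 4 windows differ most in CpG. The ratio of observed to expected CpG was 1.26 at Snhg5, 0.469 at 4833412C05Rik, 0.178 at Gm34474 and 0.0437 at Mhrt. The windows of 4833412C05Rik and Gm34474, whose peaks moved furthest of the 4, held none of the motifs searched. A match or its absence describes the letters of the window and is not evidence of binding.

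As a set, the no-GO promoters had a median ratio near 1 with this scaling. Their median log2 ratio was 0.0027, against -0.02 for the 16577 promoter peaks of genes with GO terms and -0.05 for all peaks. The authors' RPM scale lowers the log2 ratios, with a median shift of -0.17, which puts the median at -0.17 and turns the sign of values just above 0, such as those of Mir212 and ENSMUSG00000044387 below. The 2-fold rule took in 189 (6.78%) as higher in the knockout and 210 (7.53%) as lower. With TMM factors the order of these shares turns, to 7.67% higher and 6.67% lower. Together these are 14.3% (exact 95% interval 13.0 to 15.7), near the 15.0% of all peaks and above the 4.09% of promoters with GO terms (333 higher, 345 lower). They were also much weaker than promoters with GO terms, at a median of 9.90 CPM in the knockout and 10.1 CPM in the control, against 23.5 and 24.1 CPM for promoters with GO terms in the knockout and the control. Their median width was 371 bases against 616, and 43.4% of them lay over the annotated start against 77.0%.

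Counting error is larger at weak peaks, so the comparison was made at equal signal. Promoters with GO terms were reweighted in 20 bins of mean CPM to the signal distribution of the no-GO promoters, and so were the 38710 peaks outside promoters. At equal signal 14.3% of no-GO promoters were past 2-fold, against 10.1% of promoters with GO terms and 15.7% of peaks outside promoters. The excess over promoters with GO terms was 4.25 percentage points and lay on both sides, with 6.78% against 4.77% higher and 7.53% against 5.28% lower. Peaks outside promoters were 6.36% higher and 9.34% lower at that signal. On the higher side the exact interval of no-GO promoters, 5.87 to 7.77, includes that level. On the lower side their interval, 6.58 to 8.57, lies below it. The median size of the log2 ratio, whatever its sign, was 0.38 for no-GO promoters, 0.32 for promoters with GO terms and 0.42 for peaks outside promoters. By this size, and by the share past 2-fold either way, no-GO promoters lay between the other 2 sets.

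The comparison was repeated along the range of signal. When the no-GO promoters were divided by mean CPM into 10 groups of near equal size, their share past 2-fold exceeded that of promoters with GO terms in 10 of 10 groups, and was below that of peaks outside promoters in 8. In the weakest group, with a median of 3.29 CPM, 48.7% of no-GO promoters passed 2-fold, against 37.4% of promoters with GO terms and 51.1% of peaks outside promoters. In the eighth group, at 19.3 CPM, the shares were 5.02%, 1.05% and 5.26% for the same sets. The excess was uneven, and in the seventh group, at 14.3 CPM, the shares were 3.94%, 3.31% and 8.48%. The exact interval of no-GO promoters there, 1.98 to 6.94, included the share of promoters with GO terms. So did their interval in the fourth group, 10.8 to 19.4, against 11.9% of promoters with GO terms. In the strongest group 4 no-GO promoters were higher and 0 lower, of 279 (1.43%). Promoters with GO terms had 6 higher and 1 lower of 5357 there (0.131%), and peaks outside promoters 20 higher and 4 lower of 1025 (2.34%).

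**Figure D1:**
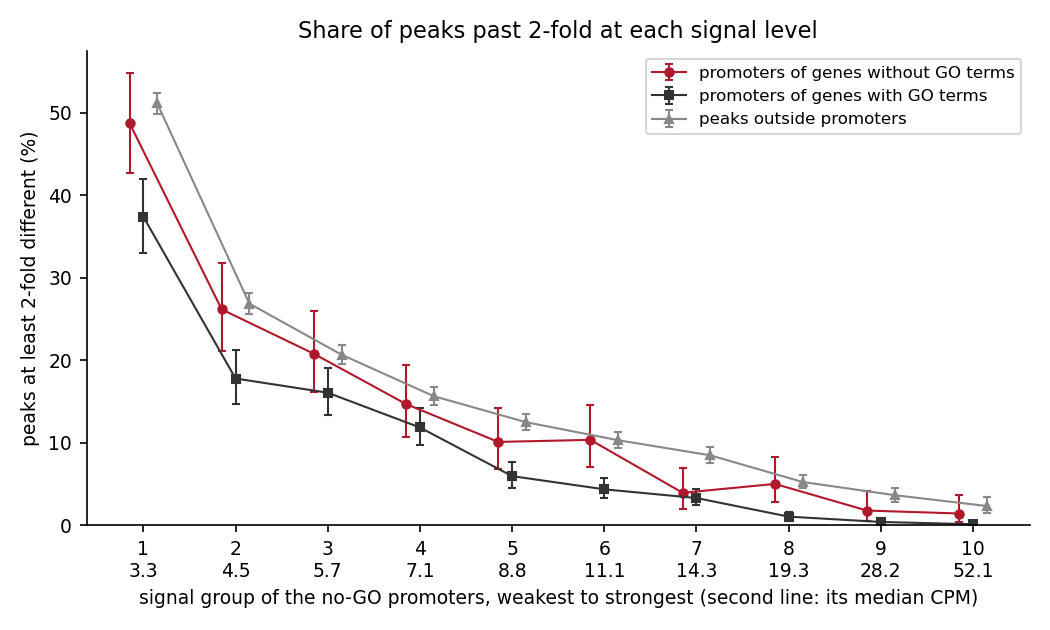
Share of peaks at least 2-fold different between the knockout and control libraries (y axis, percent) by group of the no-GO promoters' mean signal, weakest first (x axis, with the median CPM of each group). Bars are exact 95% intervals that treat peaks as independent draws. The no-GO promoters fall from 48.7% in the weakest to 1.43% in the strongest group and lie above the promoters with GO terms in every group plotted.

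Fewer no-GO promoters than promoters with GO terms were called in both libraries. Of them 57.5% were called in both libraries (55.0% of all peaks), 17.7% in the knockout alone (15.9% of all peaks) and 24.8% in the control alone (29.1% of all peaks). Promoters with GO terms were called in both in 79.9%. A peak called in 1 library alone was picked for a high count there. Of 399 no-GO promoters past 2-fold, 38 were called in both libraries, 19 in each direction. These are 2.37% of the 1604 called in both, against 0.586% of promoters with GO terms and 2.96% of peaks outside promoters called in both at equal signal.

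The share past 2-fold differed with position relative to genes, and the signal differed with position as well. Peaks over the annotated start passed 2-fold in 9.92% of cases, against 6.79% of promoters with GO terms and 11.7% of peaks outside promoters at equal signal. Peaks beside the start passed in 17.7% of cases, against 12.6% and 18.8% for the same sets, so the sets reweighted to equal signal rose as well. A peak was also sorted by the distance to the nearest start of another gene that is protein coding in RefSeq or has GO terms. The 266 no-GO promoters with such a start within 1 kb passed in 7.14% of cases (7 higher, 12 lower), against 6.05% of promoters with GO terms and 11.6% of peaks outside promoters at equal signal. The share was 10.6% at 1 to 10 kb, 14.4% at 10 to 50 kb and 19.2% beyond 50 kb. Signal fell along the same order, with control medians of 13.8, 12.3, 9.33 and 8.29 CPM, and its part in this trend was not tested. Without a coding or GO start within 1 kb, 15.1% of 2523 peaks passed, against 10.4% of promoters with GO terms at equal signal. Among these, 783 peaks inside another coding gene passed in 14.7% of cases, and 1740 outside coding genes in 15.2%.

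The 1 kb limit has no visible edge in signal. The 139 no-GO promoters lying 900 to 1000 bases from their start had a median of 8.26 CPM over both libraries and a median log2 ratio of 0.12, with 21 higher and 11 lower. The 109 peaks of genes without GO terms at more than 1000 and up to 1100 bases had a median of 7.91 CPM and a median log2 ratio of -0.04, with 8 higher and 11 lower.

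Kinds of genes differed in their share past 2-fold. Identifiers were matched to RefSeq genes by position, which gave a class to 1276 of 2461 genes (51.8%). The 870 peaks of long noncoding RNA genes had 51 higher and 73 lower (14.3%), against 9.06% of promoters with GO terms at equal signal. The 211 peaks of pseudogenes had 15 higher and 24 lower (18.5% against 14.1%), and the 96 of small nucleolar or nuclear RNA genes had 9 higher and 4 lower (13.5% against 9.78%). The 81 microRNA peaks had 2 higher and 5 lower (8.64% against 6.16%). The 1303 peaks with no RefSeq match had 102 higher and 99 lower (15.4% against 10.6%). The 211 peaks of protein-coding genes that lack GO terms stood at 4.74% (7 higher, 3 lower), below the 5.91% of promoters with GO terms at their signal. Their exact interval and those of the smaller noncoding classes include the level of promoters with GO terms.

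**Figure D2:**
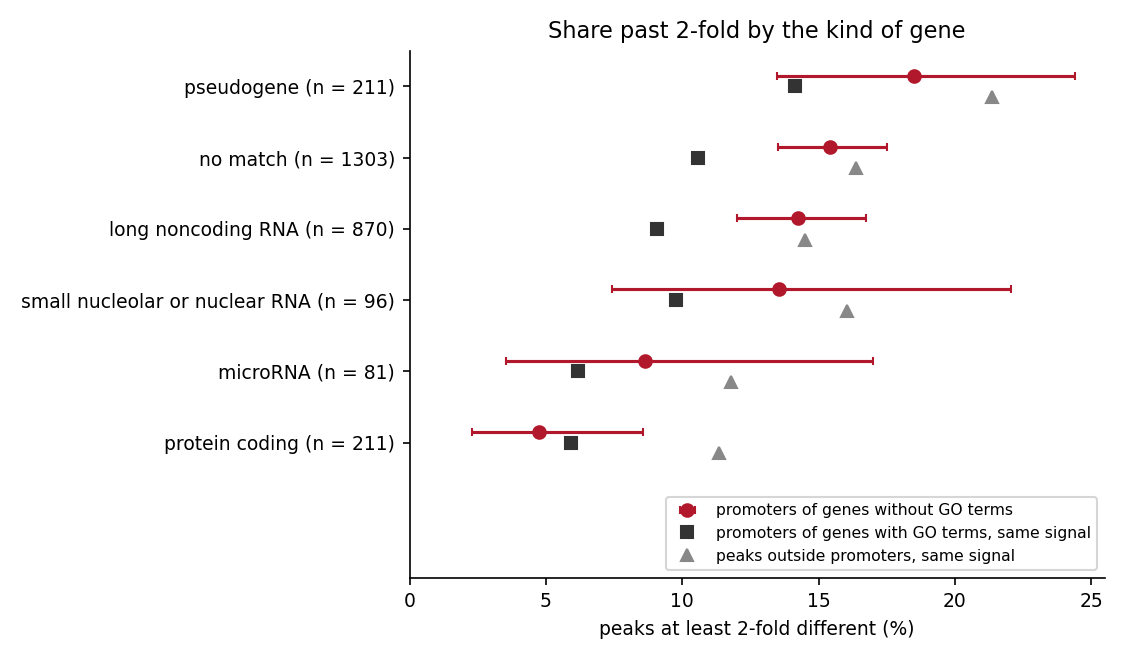
Percent of no-GO promoter peaks at least 2-fold different by RefSeq class (circles), beside promoters with GO terms (squares) and peaks outside promoters (triangles) reweighted to the same signal. Bars are exact 95% intervals that treat peaks as independent draws, and they do not test a difference between classes. The level of promoters with GO terms lies below the bars of long noncoding and unmatched genes. It lies within the bar of protein-coding genes without GO terms, at 4.74%.

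The strongest no-GO promoters lie in repeated sequence. The peak of ENSMUSG00000097971 (chromosome 17, 39843002 to 39846841) held 56560 counts in the knockout and 34743 in the control, a log2 ratio of 0.77. The peak of ENSMUSG00000105361 beside it (39847529 to 39848809) held 15715 in the knockout and 9501 in the control, 0.79. Both overlap Rn18s-rs5, an 18S ribosomal RNA related sequence annotated as a pseudogene. Gm10222, a pseudogene within a nuclear insertion of mitochondrial DNA (chromosome 1, 24612382 to 24613534), held 31146 counts in the knockout and 19861 in the control, 0.71. Reads from ribosomal DNA arrays or from mitochondrial DNA can align to such copies, and the sources used here do not say how they were placed, so the locus behind these counts is uncertain.

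These 3 peaks held 25.5% of all counts of the no-GO promoters in the knockout and 17.0% in the control. The summed counts of all no-GO promoters gave a ratio of 1.12 (95% interval 1.12 to 1.13). Without the 3 peaks the ratio was 1.01 (1.01 to 1.02), so the difference in the sum rests on them, and on the RPM scale the ratio of all no-GO promoters was 0.998. Rn5s-ps1, a pseudogene of 5S ribosomal RNA, held 124 counts in the knockout and 71 in the control (log2 ratio 0.86), the highest among pseudogenes above the median signal. The 10 peaks on unplaced sequences, the kind of contig that often holds repeats, had a median log2 ratio of 0.40. The strongest of them, ENSMUSG00000095041, held 4380 counts in the knockout and 3073 in the control, 0.57.

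**Figure D3:**
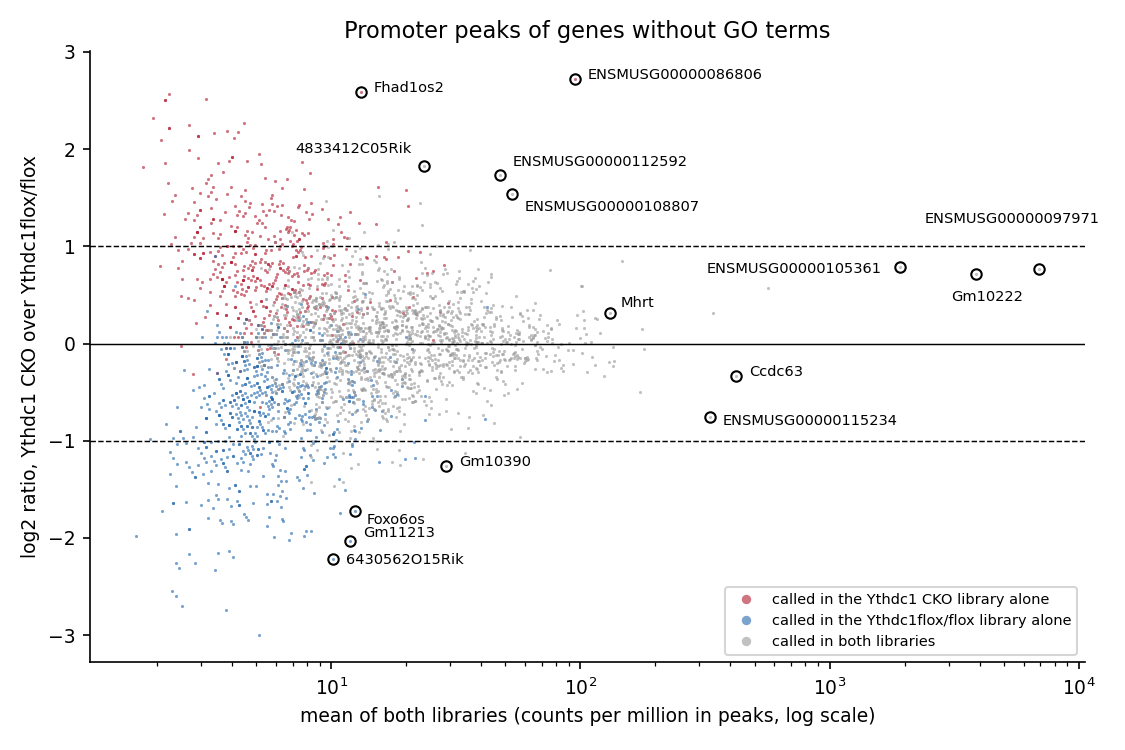
Each point is 1 of 2789 no-GO promoter peaks, by mean signal of both libraries (x axis, CPM on a log scale) and log2 ratio of knockout over control (y axis), coloured by the library that called it, with dashed lines at 2-fold. Peaks past 2-fold gather at low signal and were mostly called in 1 library alone, while the 3 repeat peaks stand alone at the far right between 0.71 and 0.79.

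The highest ratios were read from no-GO promoters above their median signal, 1 peak per gene. The first 10 ran from 1.41 to 2.73 on the log2 scale. Of these, 7 lay over their start and 7 belong to identifiers with no RefSeq match. The highest, ENSMUSG00000086806 (chromosome 4, 148003002 to 148005062, minus strand), held 1067 counts in the knockout and 168 in the control, 6.64-fold (5.63 to 7.85). It lies past the end of Nppa, the gene for atrial natriuretic peptide, and overlaps the end of Clcn6, a chloride transporter gene. The transcript runs back on the other strand and ends within Nppa. Fhad1os2, an RNA antisense to Fhad1, held 146 counts in the knockout and 25 in the control, 6.10-fold (3.97 to 9.74). 4833412C05Rik, whose promoter is printed above, held 239 in the knockout and 70 in the control, 3.57-fold (2.72 to 4.72). For both of these long noncoding genes the gene with the nearest coding start moved less. Efhd2, with its start 11676 bases away, had a log2 ratio of 0.44. Synm, an intermediate filament gene of muscle with its start 43618 bases away, had 0.31.

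Several of the other high peaks lie inside coding genes. ENSMUSG00000112592, within Unc5b, a netrin receptor gene of vessels and neurons, held 473 counts in the knockout and 148 in the control, a log2 ratio of 1.74. The promoter of Unc5b itself held 558 and 480 counts in the knockout and the control, 0.28. ENSMUSG00000104486, within Mecom, a zinc finger factor gene, held 150 in the knockout and 51 in the control, 1.61, and the Mecom promoter stood at 0.37. That promoter peak lies at 30546822 to 30547501 on chromosome 3, far from this peak at 30160876 to 30161580. ENSMUSG00000108807, within Hif3a, a gene of the hypoxia response, held 511 in the knockout and 184 in the control, 1.53, and the Hif3a promoter stood at 0.48.

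Gm15441, a noncoding RNA known in mouse liver as antisense to Txnip, held 192 counts in the knockout and 75 in the control, 1.41. Its peak lies 584 bases from the start of Txnip, the gene for a thioredoxin inhibitor, whose own promoter held 279 counts in the knockout and 253 in the control, 0.20. The other 3 of the 10 have no RefSeq match. ENSMUSG00000105355 held 193 counts in the knockout and 67 in the control, ENSMUSG00000114637 held 149 and 54, and ENSMUSG00000111058 held 215 and 82, in the same order of libraries. Over the 9 coding neighbours with a promoter peak of their own, log2 ratios ran from -0.46 (Erbin) to 0.53 (Smad6), 8 above 0 and none past 2-fold. Of all 16577 promoters with GO terms 7825 lay above 0, and 4.09% passed 2-fold. The nearest starts of these neighbours lay from 584 bases (Txnip) to 88639 bases (Smad6) away, so many are not adjacent. For Mecom the promoter peak read lies further off, at another start.

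The lowest 10 ratios above the median signal ran from -2.22 to -1.27, from weaker peaks than the highest. 6430562O15Rik, a long noncoding gene within Mrps27, held 23 counts in the knockout and 114 in the control, 0.211-fold (0.128 to 0.332). Gm11213, a predicted coding gene, held 30 in the knockout and 130 in the control, with a log2 ratio of -2.03. Foxo6os, antisense beside the transcription factor gene Foxo6, held 37 in the knockout and 129 in the control, -1.72, and the Foxo6 promoter stood at -0.43. Gm34474, whose promoter is printed above, held 35 in the knockout and 102 in the control, -1.47. Gm10390, within Rbm19, was the strongest of the 10, at 110 counts in the knockout and 277 in the control, -1.27, against -0.14 at the Rbm19 promoter.

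The other 5 of the lowest had 32 to 45 counts in the knockout and 105 to 115 in the control. They were ENSMUSG00000097060, ENSMUSG00000098999, ENSMUSG00000115490, 4631405J19Rik within Prdm11, and Gm19522 within Zbtb20. The coding neighbours of the lowest peaks ran from -0.91 (Fgf14) to 0.15 (Ppp1r3b), 6 of 8 below 0 and none past 2-fold. Fgf14 was weak, with 15 counts in the knockout and 30 in the control. Among all 16577 promoters with GO terms, 7825 lay above 0 and 4.09% passed 2-fold. The nearest starts of these neighbours of the lowest peaks lay from 3340 bases (Zbtb20) to 157056 bases (Ppp1r3b) away. For Zbtb20 the promoter peak read, at 42874874 to 42875945, lies further off, as the Gm19522 peak is at 42910732 to 42911088. Of the highest 10 peaks 5 were called in the knockout alone, and of the lowest 10 peaks 6 were called in the control alone.

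**Figure D4:**
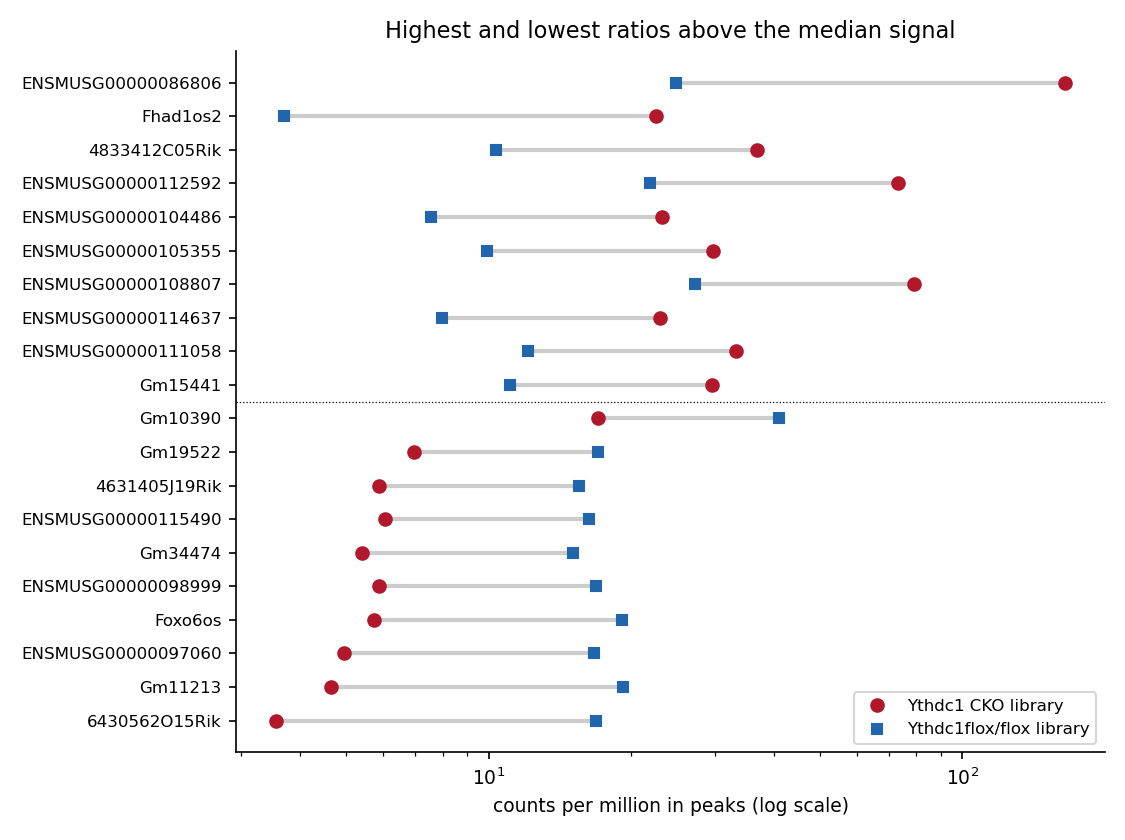
CPM (x axis, log scale) of the 10 highest (above the dotted line) and 10 lowest ratios among no-GO promoters above their median signal, with the knockout as circles and the control as squares. The highest peaks include ENSMUSG00000086806 at 165 CPM in the knockout, while 9 of the lowest hold under 7 CPM in the knockout.

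The other strong no-GO promoters included 3 next to contractile and oxygen-storage genes, and each of the 3 was lower in the knockout. ENSMUSG00000115234 lies within Cmtm5 on chromosome 14, just past the end of Myh6, the gene for the adult cardiac myosin heavy chain. Its peak held 1592 counts in the knockout and 2806 in the control, a log2 ratio of -0.75, while the Cmtm5 promoter held 924 and 984 counts in the knockout and the control. The Myh6 promoter peak held 758 counts in the knockout and 799 in the control, -0.01, and the Mhrt peak over the annotated Myh6 start stood at 0.32. The peak assigned to Ccdc63 overlaps the span of Myl2, the ventricular myosin light chain gene, and held 2420 counts in the knockout and 3182 in the control, -0.33. The promoter of the gene with the nearest coding or GO start to it, ENSMUSG00000013936, stood at -0.72. ENSMUSG00000116272, just past the end of the myoglobin gene Mb, held 927 in the knockout and 1369 in the control, -0.50, and the Mb promoter stood at -0.60. ENSMUSG00000044387, near the Krüppel-like factor gene Klf9, held 1201 in the knockout and 1132 in the control, 0.15. The last 2 of the 10 strongest were ENSMUSG00000099208 on chromosome 1, at 0.32, and ENSMUSG00000063897 on an unplaced sequence, at -0.05. The heart muscle marker promoters had a median log2 ratio of -0.44, and their part in these values was not tested.

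Of 55 listed noncoding RNA genes, 27 could be matched by position to a no-GO promoter peak, and the others may lack a match rather than a peak. The strongest peak of each is described here, and 0 of these 27 passed 2-fold, against 15.0% of all peaks. The strongest peaks of 23 genes lay above the median signal of no-GO promoters, where 4.51% of no-GO promoters passed. Over all 45 peaks of the 27 genes, weaker ones of Pvt1 and Airn were 2-fold higher, at 1.02 and 1.60 on the log2 scale, and 1 of Mir100hg was lower, at -1.22. For the strongest peaks the median log2 ratio was 0.08, with 14 above and 13 below 0. The counting interval lay wholly above a ratio of 1 for 6 genes and wholly below for 2. These counts hold for the scaling used here. The authors' RPM scale shifts log2 ratios by -0.17, which would leave fewer intervals above 1 and more below. Mhrt, known to limit hypertrophy in the mouse heart, held 945 counts in the knockout and 793 in the control, a log2 ratio of 0.32. Its peak also covers the annotated start of Myh6, so the 2 genes cannot be told apart there. Carmn, which hosts miR-143 and miR-145 and is known from smooth muscle and cardiac cells, held 318 in the knockout and 231 in the control, 0.52. Bvht, called Braveheart and known from cardiac commitment of mouse cells, held 146 in the knockout and 119 in the control, 0.36. Both lie in the same stretch of 1 chromosome.

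Among RNAs known to carry N6-methyladenosine, Malat1, a nuclear speckle RNA, held 566 counts in the knockout and 499 in the control, 0.24. Meg3, an imprinted RNA, held 20 in the knockout and 36 in the control, -0.77, the lowest of the list. Terc, the telomerase RNA, was the highest at 41 in the knockout and 24 in the control, 0.82, at counts that leave an interval of 1.05 to 3.09 for the ratio. Rn7sk, the RNA that holds the elongation factor P-TEFb inactive, held 488 in the knockout and 417 in the control, 0.29. The 6 peaks of Snhg genes, hosts of small nucleolar RNAs, lay between -0.34 and 0.33, with 3 above 0.

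**Figure D5:**
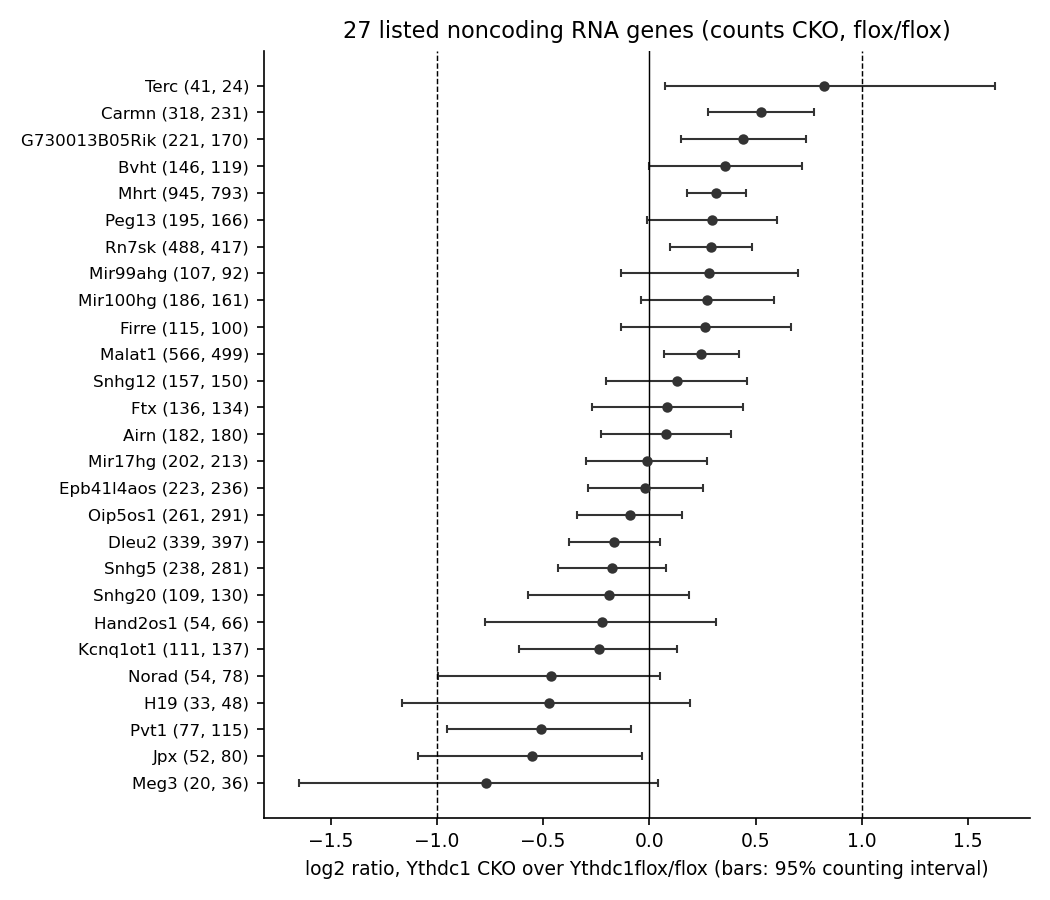
Log2 ratio of knockout over control (x axis) for the strongest no-GO promoter peak of 27 listed noncoding RNA genes, with 95% counting intervals and the counts of the knockout and the control beside each name. None of the 27 lies beyond the dashed lines at 2-fold, and the values run from -0.77 at Meg3 to 0.82 at Terc.

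MicroRNA genes gave 81 no-GO promoter peaks at 77 genes, of which 47 lay above 0, with a median log2 ratio of 0.09. Of these peaks 55 lie within a coding gene, so their reads cannot be assigned to the microRNA gene rather than to its host. Of 37 listed heart and muscle microRNA genes 8 could be matched by position to a promoter peak, 6 of them with GO terms, which leaves Mir212 and Mir30a here. A listed gene may be missing because its identifier had no match, so its lack of a promoter peak is not established. Mature sequences follow, 5′ to 3′ from RefSeq with the seed (bases 2 to 8) in capitals, for these 2 genes, for the highest and lowest microRNA peaks above the median signal (Gm23363 and Mir6413), and for 3 strong peaks chosen after their values were seen (Mir210, Mir6236 and Mirlet7i).
miR-212-3p: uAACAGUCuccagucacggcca
miR-30a-5p: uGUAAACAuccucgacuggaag
miR-3154 (Gm23363): cAGAAGGGgagucgggagcgga
miR-6413: uGGCUCAGaagagcagguagu
miR-210-3p: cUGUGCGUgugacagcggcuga
miR-6236: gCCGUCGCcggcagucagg
let-7i-5p: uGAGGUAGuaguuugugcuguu

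No seed was shared between any of the 73 microRNA genes that had a mature sequence. Mir212, one of a pair with Mir132 known to promote hypertrophy in mouse heart, held 210 counts in the knockout and 206 in the control, a log2 ratio of 0.09. Mir30a was weak, with 35 counts in the knockout and 28 in the control. Mir210, whose product rises under low oxygen, held 742 in the knockout and 613 in the control, 0.34. Mirlet7i, a member of the let-7 family, held 261 in the knockout and 347 in the control, -0.35. Mir6236 held 612 in the knockout and 379 in the control, a ratio of 1.69 beside 1.71 for the ribosomal peaks above. Whether its reads come from repeated sequence was not tested. Gm23363, within Dnm1, held 210 in the knockout and 116 in the control, 0.92, and Mir6413 held 45 and 103 in the same order of libraries, -1.12.

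Small nucleolar and nuclear RNA genes had 96 no-GO promoter peaks, with a median log2 ratio of -0.07. Above the median signal the highest was Gm24166, with 193 counts in the knockout and 105 in the control, 0.94, and the lowest LOC115487516, with 68 in the knockout and 166 in the control, -1.22. Such genes occur in many near-identical copies, so the reads of 1 copy may be split over others. The 6 peaks of named Snora and Snord genes were strong and lay between -0.30 and 0.34.

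The protein-coding genes without GO terms had stronger promoters than the noncoding classes. Of 211 peaks, 71.1% lay over the start, and the median signal was 16.2 CPM in the knockout and 16.6 CPM in the control. Coro6, a coronin actin regulator gene of muscle, was the highest of them above the median signal with 195 counts in the knockout and 123 in the control, 0.73. Among RNAs of other classes, Rny3, a Y RNA gene, held 103 counts in the knockout and 68 in the control, 0.66, and n-TStga1, a transfer RNA gene, held 179 and 213 in the same order of libraries, -0.19. The 37 peaks of genes named as opposite-strand transcripts had 3 higher and 6 lower (24.3%, exact interval 11.8 to 41.2, which includes the 15.0% of all peaks). Above the median signal, Fhad1os2 was the highest and Foxo6os the lowest of these.

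Base composition could be compared for a part of the no-GO promoters. A RefSeq window could be set beside 477 of the peaks (17.1%) and beside 8815 promoters with GO terms. These 477, at 366 long noncoding and 111 protein-coding genes, were stronger than the whole set (median 15.4 against 9.89 CPM over both libraries) and lay over the start more often (84.9% against 43.4%). A window was called CpG-rich at a CpG ratio of at least 0.6 with at least 50% GC. Of the no-GO windows 35.2% were CpG-rich, against 74.3% with GO terms and 33.5% of all 32851 RefSeq windows. The share was 27.6% at long noncoding and 60.4% at protein-coding genes without GO terms. The 168 CpG-rich no-GO promoters had a median of 29.4 CPM in the knockout and 28.3 CPM in the control. Of them 2.98% passed 2-fold (2 higher, 3 lower), against 1.49% of promoters with GO terms at equal signal. The exact interval of that share, 0.973 to 6.81, includes the level of promoters with GO terms. The 309 CpG-poor no-GO promoters had 10.5 CPM in the knockout and 11.1 CPM in the control, and 12.9% (exact interval 9.41 to 17.2) passed against 7.84%.

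Motifs were searched on both strands. The motif of NF-Y was spelled CCAAT and found at about the same level in each set, in 37.1% of no-GO windows, 38.2% of windows with GO terms and 37.4% of all windows. The GC box, known to bind Sp1, was spelled GGGCGG. GC boxes were in 41.5% of no-GO windows, 69.7% of windows with GO terms and 35.7% of all windows. The TATA box, spelled TATAAA, was in 11.3%, 5.98% and 13.6% of the same sets. The motif of the stress-responsive factor AP-1, spelled TGANTCA, was in 10.5%, 4.29% and 7.81% of them. The motif of TEAD factors, which act with MEF2 and GATA factors in muscle, was spelled CATTCC and was in 17.8%, 11.2% and 14.7%. The GATA motif, spelled AGATAA, was in 8.39%, 5.18% and 11.2%. The MEF2 motif, spelled TAAAAATA, was rare, in 2.52%, 0.964% and 2.72%. The NRF1 motif GCGCATGC was in 2.73%, 5.73% and 2.71%, and the ETS motif CCGGAAGT in 3.77%, 8.29% and 3.89%. The GC box and AP-1 letters may overlap other motifs, and each was counted on its own.

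Genes with several peaks were examined for the sign of each. Of 2461 genes, 298 had several no-GO promoter peaks. In 90 of these all peaks lay above 0, in 84 all lay below, and in 124 they had both signs. No gene had 2 or more peaks that were 2-fold higher, and 2 genes, Gm33172 and ENSMUSG00000105168, had 2 or more that were 2-fold lower. Hectd2os had peaks at 1.14, 0.59 and -0.31 on the log2 scale.

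Beside a promoter with GO terms, the pair of ratios was correlated most at short distance. Over peaks of at least 10 CPM, Pearson's r was 0.37 within 5 kb (209 pairs), 0.22 at 5 to 20 kb (312), 0.13 at 20 to 100 kb (569) and 0.15 beyond 100 kb (283). These are descriptions across peaks of the same 2 libraries, which are not independent. The share of pairs with the same sign was 61.7% within 5 kb, 53.5% at 5 to 20 kb, 56.6% at 20 to 100 kb and 58.7% beyond. By chromosome, autosome medians ran from -0.19 (43 peaks on chromosome 18) to 0.12 (97 peaks on chromosome 16), and the 48 peaks on X had a median of -0.03.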

How the data were processed

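ATAC-seq of heart nuclei from 1 Ythdc1 CKO and 1 Ythdc1flox/flox library was analysed from the authors' table of 58076 merged peaks. BWA, MACS2 and the build GRCm38.p6 are named in the submitters' processing notes, without versions. The sources used here do not give duplicate removal, the Tn5 shift, the treatment of reads with several placements, or whether reads or fragments were counted. The deposited counts are whole numbers for each peak and unnormalized, per the file headers. The deposited RPM equals (count + 1) times 1 constant per library, 0.01822 in the knockout and 0.01965 in the control. The deposited fold enrichment, a ratio, and the deposited log2 fold change between libraries are the authors', and the first served only to filter peaks. Coordinates are as deposited.

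Counts were scaled to CPM by their sums over peaks, 6466537 (knockout) and 6755590 (control). The log2 ratio used 0.5 added counts. Intervals of ratios and shares are exact (Clopper-Pearson) at 95%. Those of ratios cover counting error only, and those of shares treat peaks as independent draws. Equal-signal values are direct standardisations in 20 bins of mean CPM (5 for sets under 400 peaks). Symbols came from RefSeq by position: an overlap over union of at least 0.5 that was at least 2 times the next candidate's, or both ends within 1 kb, then same-strand starts within 200 bases. Of 24480 identifiers 73.4% were matched, and 51.8% of those without GO terms. The named peaks are the 10 highest and 10 lowest ratios above the no-GO promoters' median signal (1 per gene), the 10 strongest, listed noncoding genes, and the highest and lowest of each class with at least 10 peaks. Others were named after their values were seen. The regions and lists were chosen with earlier results of these data known. Python 3.11.15, pandas 2.3.3, NumPy 2.4.6, SciPy 1.17.1 and matplotlib 3.10.9 were used, and edgeR 4.0.16 in R 4.3.3 for TMM factors only. The steps were tested on simulated data. Alternative scalings, thresholds, filters and sets were tried.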

Additional observations from a re-analysis of the deposited data

How the results depend on the processing

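The excess of no-GO promoters past 2-fold over promoters with GO terms at equal signal (4.25 percentage points) stayed above 0 under the 15 alternatives run. It was 6.21 points at a 1.5-fold threshold, 2.65 in peaks above the median signal of all peaks and 1.78 for peaks called in both libraries, and between 3.30 and 4.99 otherwise. The difference of medians stayed between 0.03 and 0.05 on the log2 scale.

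Shares higher and lower (6.78% and 7.53%) depend on scaling, filter and threshold. They were 4.34% and 10.04% on the authors' RPM scale, which moves the log2 ratios by a median of -0.17, and 7.67% and 6.67% both with TMM factors and with the median of all peaks set to 0. They were 5.13% and 5.02% with 5 counts added, 2.34% and 2.27% above the median signal of all peaks, 1.18% and 1.18% for peaks called in both libraries, 4.25% and 4.78% at a fold enrichment of at least 10, and 16.4% and 17.8% at 1.5-fold. Within 3 kb of a start 8.95% were lower. The median log2 ratio was -0.17 on the RPM scale, 0.055 with TMM factors, 0.054 with the median of all peaks set to 0, 0.022 above the median signal of all peaks, and 0.030 for peaks called in both. So which side is larger depends on the scaling, and the difference between the sides also shrinks or turns with 5 counts added, above the median signal and for peaks called in both.

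The ratio of summed counts, 1.12, was 1.01 without the peaks over 5000 counts, 1.17 with TMM factors or median scaling, and 0.998 on the RPM scale. These alternatives to the sum, and the setting without those peaks, were chosen after seeing the data. Of 272 alternative values of 68 named peaks, none past 2-fold changed sign, and 17 moved beyond their counting interval.

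No paired analysis was possible because there is 1 library per genotype, and leaving out a library leaves nothing to compare. Depth is a further limit, with a median of 9.89 CPM per no-GO promoter.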
